A study of Mus musculus with 6 samples.

Results

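mmu-miR-132 and mmu-miR-212, written miR-132 and miR-212 from here on, are 2 of the 611 mouse microRNAs (miRNAs) on the arrays of this study and account for 4 of its 1759 mouse probes. They were chosen by their names on the array, as a pair made from 1 transcript that shares a seed, and not by their values. Earlier results of these data were known at that time. Each is printed on all 6 arrays, whether or not it gave a signal above background. RNA came from bone-marrow-derived macrophages (BMDMs) of female C57BL/6 mice in 2 groups of 3 samples. Knockout samples came from MxCre-RBP-Jf/f mice, with floxed RBP-J on both alleles, and control samples from MxCre-RBP-Jf/+ mice, with 1 floxed allele, although the titles call these control samples WT. RBP-J binds DNA and partners with the cleaved Notch receptor to turn on Notch target genes. All animals carried the Cre transgene and had received poly(I)-poly(C), and all cultures had received lipopolysaccharide (LPS) for 24 h, so no sample shows the unstimulated level. The Mx promoter responds to interferon and drives Cre in many tissues rather than in macrophages alone, and a miRNA array carries no Rbpj measurement, so loss of RBP-J was not checked. The labels do not say whether replicates were separate animals or cultures, so p-values measure the spread between these samples only. The ages of the mice are not given in the sources used here.

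miRNAs are short RNAs that guide Argonaute proteins to messenger RNAs, mainly through pairing of the seed near their 5′ end. miR-132 and miR-212 are cut from neighbouring hairpins of a common primary transcript whose transcription is driven by CREB, the factor that responds to cyclic AMP and to growth factor signalling. They are best known from neurons, where activity induces them, and miR-132 is also induced by Toll-like receptor ligands such as LPS in monocytes and macrophages. The co-activator p300 is among its known targets. The guide strands of the pair, which carry the shared seed, are given first because the seed is what would give them common targets. The array names carry no arm, and these are the arms that share a seed in the RefSeq table of build GRCm38.p6, where both miRNAs were matched. Capitals mark the seed, bases 2 to 8.
miR-132-3p: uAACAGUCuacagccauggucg
miR-212-3p: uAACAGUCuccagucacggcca
Their first 9 bases were identical, and 17 of 22 positions in all. Counted from 1 at the 5′ end, with the miR-132 base first, the differences were A10C, C14U, U17C, U20C and G22A. Of 1738 mature mouse entries in that table, only these 2 had the seed AACAGUC.

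The hairpins show how close together the miRNAs lie and that each guide comes from the 3′ arm. Capitals mark the guide strand. Mir212 lies at chr11:75173388-75173478 and Mir132 at chr11:75173682-75173747, both on the plus strand of GRCm38.p6, with 203 bases between them. These positions are those of the RefSeq table, since the array files name no build.
Mir212: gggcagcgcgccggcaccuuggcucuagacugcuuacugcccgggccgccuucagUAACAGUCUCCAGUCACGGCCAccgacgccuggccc
Mir132: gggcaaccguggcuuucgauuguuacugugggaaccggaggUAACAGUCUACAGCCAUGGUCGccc
In the RefSeq gene table no other gene overlapped the stretch that holds them, and the genes on either side were Hic1 and Ovca2.

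The arrays were 1-colour and shared 1 slide. The myeloid miRNAs miR-223, miR-142-3p and miR-142-5p were detected on all 6 arrays, whereas 0 of 5 neuronal markers (miR-124, miR-9, miR-128, miR-138 and miR-153) were detected on any array. The same held for the lymphoid (only miR-150 and miR-181c), erythroid or platelet, endothelial, stromal, epithelial and muscle lists. However, miR-181a and miR-181b, which were not on the lymphoid list, were detected on all 6 arrays. Arrays differed in brightness: the 75th percentile of probes detected on every array was 186.3 to 227.1 intensity units in knockout samples and 242.6 to 352.3 in control samples. Signals are therefore given relative to that percentile on the log2 scale unless stated. Every knockout array was dimmer than every control array, so array brightness and genotype cannot be told apart. In bulk RNA of this kind, fewer cells that make a miRNA and less of it per cell cannot be told apart.

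miR-132 was detected near the lower limit of the arrays. Its brighter probe read a median of 22.1, 10.1 and 13.5 intensity units over its spots in knockout samples 1, 2 and 3, against 24.8, 14.4 and 11.1 in control samples 1, 2 and 3. Sample 1 of each genotype was the brightest of its group, and the groups overlapped. Agilent's image software marked 9, 5 and 10 of the 10 spots as well above background in the knockout samples, against 10, 9 and 4 in the control samples. With at least 50% of spots required, miR-132 was thus detected in 3 of 3 knockout and 2 of 3 control samples. All 60 spots of that probe were positive and significant by the software's own test. The second miR-132 probe was dimmer, with 1 of 30 knockout spots and 4 of 30 control spots well above background, and was detected on 0 of 6 arrays. Spots of that probe within an array varied more in relative terms, with a coefficient of variation of up to 55.9%, against up to 23.3% for the brighter probe.

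On the scaled log2 axis miR-132 stood at -3.36, -4.20 and -4.06 in knockout samples, against -3.53, -4.08 and -4.32 in control samples. The last value is a floor applied to signals too dim to order, and the measured signal of control sample 3 was -4.99. Knockout sample 1 and control sample 1 were the highest of the 6, and the genotypes overlapped. Agilent's gene-level total, which combines the probes of a miRNA, was 20.2, 9.38 and 14.3 units in knockout samples, against 24.6, 13.9 and 12.3 in control samples. In knockout sample 1 it lay below the median of the brighter probe alone, so totals are not plain sums of the intensities above. The software's error on these totals was 2.03 to 3.05 units and it called miR-132 detected on every array. In the authors' series matrix, on a log2 scale, miR-132 stood at 4.57, 3.34 and 3.86 in knockout samples, against 4.48, 4.04 and 3.34 in control samples.

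miR-212 was measured more firmly. All 60 spots of its brighter probe were well above background, with medians of 20.4, 23.4 and 37.3 intensity units in knockout samples, against 35.0, 24.0 and 44.0 in control samples. The second probe was well above background on 14 of 30 knockout spots and 21 of 30 control spots and was detected on 4 of 6 arrays. Sample 3 was the brightest of its group in both genotypes before scaling. After scaling, miR-212 stood at -3.48, -2.995 and -2.60 in knockout samples, against -3.04, -3.34 and -3.002 in control samples. Knockout samples held both the lowest and the highest value, so the control range lay inside the knockout range. Gene-level totals were 21.6, 22.6 and 36.7 units in knockout samples, against 33.9, 22.6 and 41.9 in control samples, with software errors of 2.58 to 3.93 units. The series matrix gave 4.67, 4.54 and 5.11 in knockout samples, against 5.05, 4.57 and 5.05 in control samples.

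**Figure D1:**
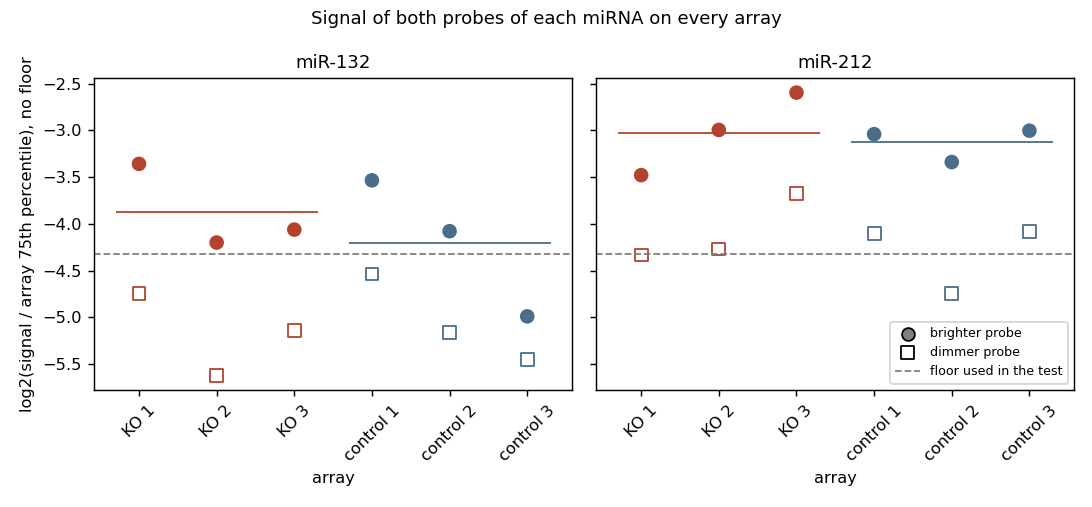
Log2 signal relative to each array's 75th percentile, with no floor applied, for the brighter (filled circles) and dimmer (open squares) probe of miR-132 and miR-212 on 3 knockout (KO, red) and 3 control (blue) arrays. Horizontal lines are group means of the brighter probe and the dashed line is the floor of -4.32 used in the test; the genotypes overlap for both miRNAs, and the brighter miR-132 probe of control sample 3, at -4.99, lies below the floor.

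The comparison of genotypes asks whether the pair depends on RBP-J in LPS-stimulated macrophages, and no such dependence was called. miR-132 averaged -3.87 ± 0.45 in knockout and -3.98 ± 0.40 in control samples (SD, n = 3 each), a difference of 0.11 (SE 0.28) or 1.08-fold, with a 95% interval of 0.689 to 1.68-fold. By limma over 135 tested miRNAs the adjusted p was 0.892. Without the floor, a setting chosen after seeing the data, the difference was 0.33 (SE 0.38), with an interval of -0.55 to 1.21 on the log2 scale (limma adjusted p = 0.741). Over all alternatives the 95% intervals reached from -1.12 to 1.21 for miR-132 and from -1.04 to 1.01 for miR-212, so that neither a 2-fold higher nor a 2-fold lower level lay outside every interval. The direction turned to -0.15 without knockout sample 1, to -0.067 without control sample 3, to -0.029 with quantile scaling, to -0.084 with no scaling between arrays and to -0.030 in the series matrix.

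miR-212 averaged -3.02 ± 0.44 in knockout and -3.13 ± 0.18 in control samples (SD, n = 3 each). The difference was 0.10 (SE 0.24) or 1.07-fold, with a 95% interval of 0.736 to 1.57-fold and a limma adjusted p of 0.875. Its direction also turned, to -0.11 without knockout sample 3, to -0.0015 without control sample 2, to -0.064 with the 75th percentile of all mouse probes, to -0.025 with quantile scaling, to -0.35 with no scaling and to -0.12 in the series matrix. On unscaled gene-level totals the means were 26.96 ± 8.44 units in knockout and 32.8 ± 9.73 units in control samples for miR-212, and 14.6 ± 5.40 and 16.9 ± 6.68 units for miR-132 (SD, n = 3 each). Neither gap exceeded the spread (two-sided exact permutation p = 0.6 for miR-212 and 0.7 for miR-132, where 3 against 3 cannot go below 0.1).

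Both miRNAs passed the filter of detection on at least 3 of 6 arrays, and 0 of 2 were called. The share called among the 135 tested miRNAs was 0% in either direction (smallest limma adjusted p = 0.637). At an unadjusted limma p under 0.05, 3.7% of tested miRNAs were higher and 0.741% lower in the knockout. The unadjusted limma p was 0.715 for miR-132 and 0.674 for miR-212. Groups did not overlap for 7.41% of tested miRNAs in the higher direction and 2.96% in the lower, and overlapped for both members. Over all tested miRNAs the median difference was 0.11, with 71.9% above 0 and 28.1% below. Relative to that median, miR-132 differed by -0.0034 and miR-212 by -0.0053, which placed them at ranks 72 and 73 of 135 from the highest difference. Across all alternatives the difference relative to the median miRNA ran from -0.29 to 0.22 for miR-132 and from -0.21 to 0.26 for miR-212.

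**Figure D2:**
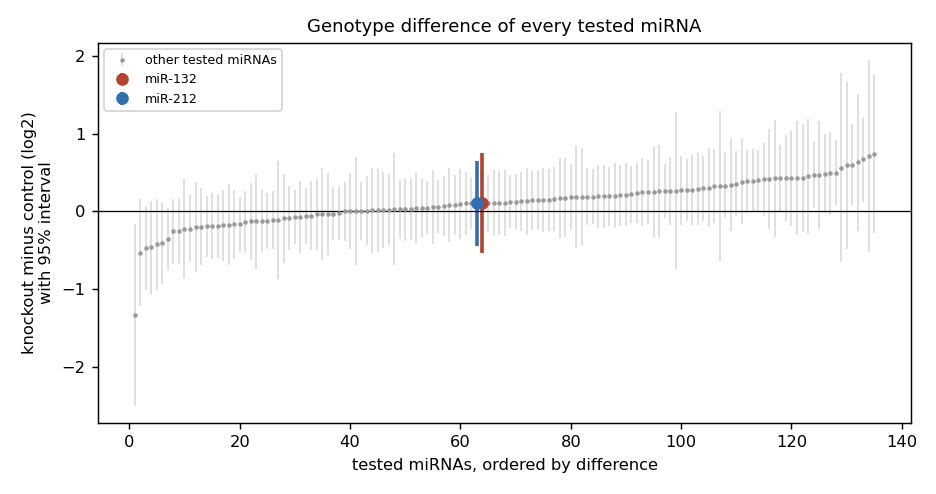
Knockout minus control difference on the log2 scale (vertical axis) for 135 tested miRNAs in order of size (horizontal axis), with limma's 95% intervals. miR-132 (red) at 0.11 and miR-212 (blue) at 0.10 lie side by side near the middle, and both intervals include 0; under quantile scaling, no scaling and the series matrix both values lie below 0.

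The slide placed samples 1 and 2 of each genotype in column 1 and both samples 3 in column 2. Within column 1 the knockout minus control difference was 0.027 for miR-132 and -0.047 for miR-212. Within column 2, which holds 1 array of each genotype, it was 0.26 and 0.41. No slide row held both genotypes, so row and genotype cannot be told apart.

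**Figure D3:**
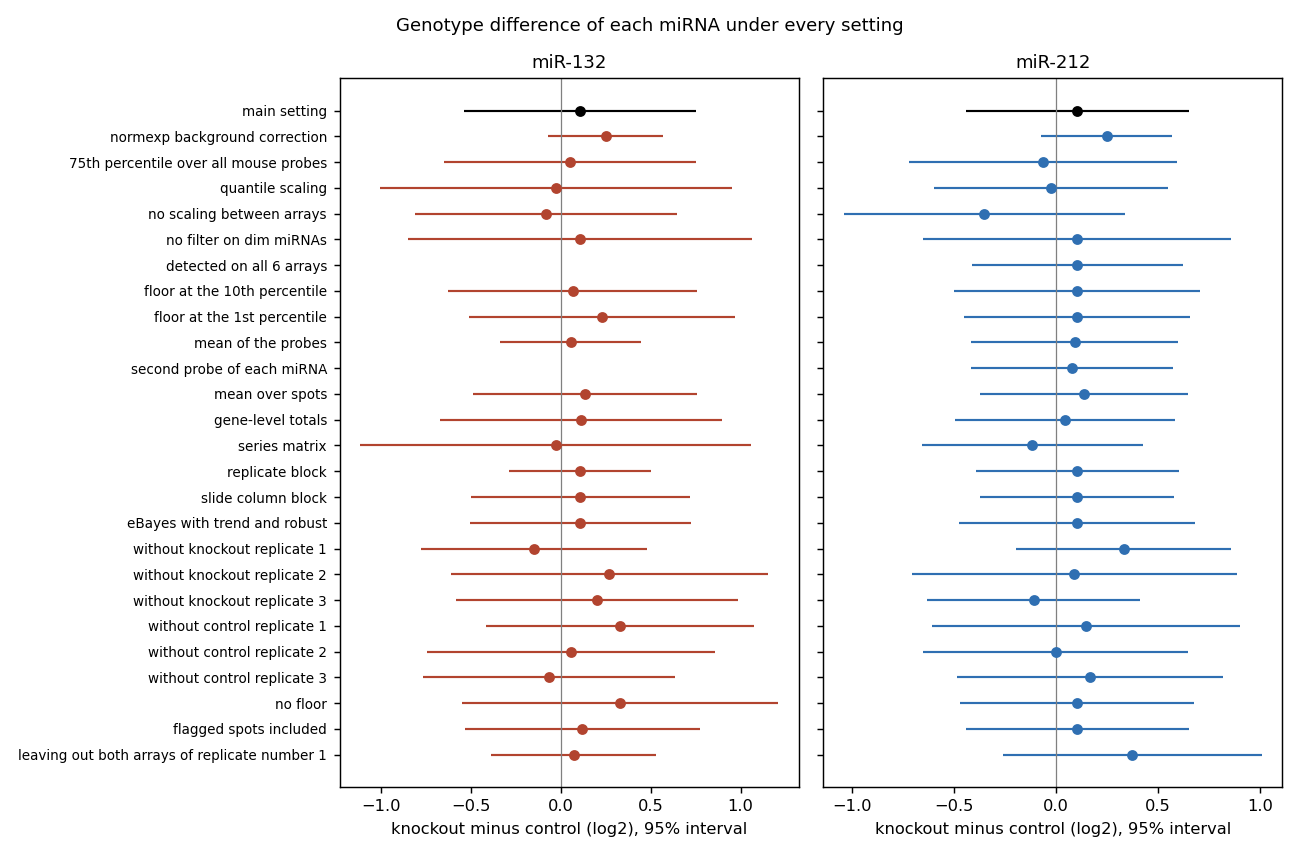
Knockout minus control difference on the log2 scale with limma's 95% interval for miR-132 (left, red) and miR-212 (right, blue) under the main setting (black) and each alternative that gave a value. Every interval includes 0, and points lie on both sides of 0, from -0.15 to 0.33 for miR-132 and from -0.35 to 0.38 for miR-212.

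The ratio of the pair within an array needs no scaling between arrays. Its absolute value also depends on how well each probe binds, so only its differences between arrays are read. From gene-level totals, the ratio of miR-132 to miR-212 was 0.933, 0.415 and 0.390 in knockout samples 1, 2 and 3, against 0.725, 0.616 and 0.293 in control samples 1, 2 and 3. The highest ratio was in knockout sample 1, and the genotypes overlapped. The lowest of these was in control sample 3, where miR-132 was not detected by the rule above, and with the floor or with the dimmer probes of both miRNAs knockout sample 3 was the lowest. On the log2 scale and with the brighter probes without a floor, the ratio was 0.12, -1.20 and -1.47 in knockout samples, against -0.49, -0.74 and -1.99 in control samples. From lowest to highest this was 2.11 log2 units, and 1.59 with the floor, which raises control sample 3 to -1.32. The spots within an array gave the ratio an SE of 0.10 to 0.13, which leaves out any variation between samples or arrays.

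The ratios of the genotypes overlapped. With the floor it averaged -0.85 ± 0.85 in knockout and -0.85 ± 0.43 in control samples (SD, n = 3 each), a difference of 0.0019 (two-sided exact permutation p = 1). Without the floor the difference was 0.22 (exact permutation p = 0.8). With the floor it stood at -0.48 without knockout sample 1 and at -0.23 without control sample 3, and it was 0.075 within slide column 1 and -0.14 within column 2. Both samples numbered 3 had the lowest ratios in 6 of 7 ways of computing it, and both samples numbered 1 the highest in 4 of 7; these 7 share spots and are not independent. The sample numbers were not shown to pair the samples, both samples 3 lay in the other slide column, and the part of position in this pattern was not tested.

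**Figure D4:**
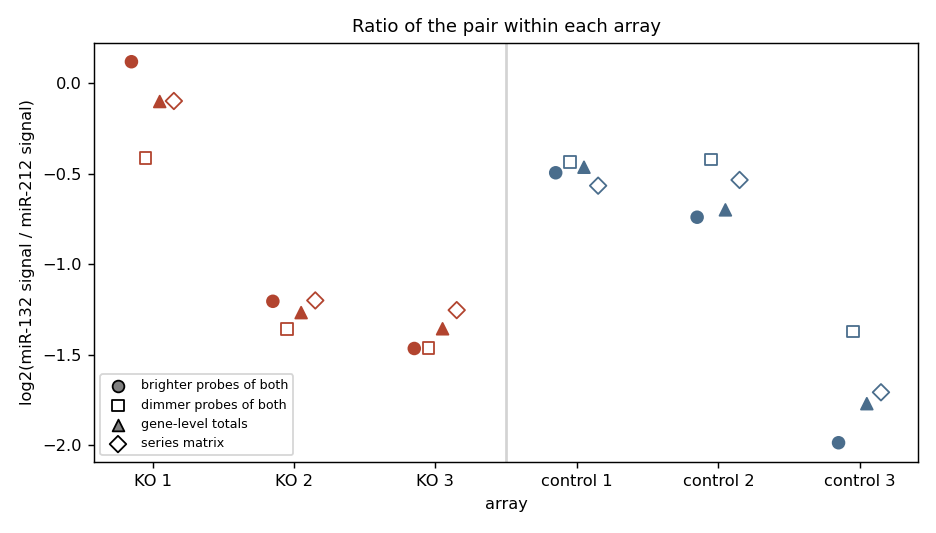
Log2 ratio of miR-132 to miR-212 signal (vertical axis) on each knockout (KO, red) and control (blue) array, from the brighter probes of both, the dimmer probes of both, gene-level totals and the series matrix. The measures of an array scatter, most in KO 1 and control 3, but KO 2, KO 3 and control 3 are the 3 lowest arrays in all 4 measures, so the genotypes overlap.

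Across the 6 arrays a shared course of the pair was not shown. Pearson's r between miR-132 and miR-212 was -0.49 (exact permutation p = 0.326) and Spearman's rho -0.49 (exact permutation p = 0.356). Without knockout sample 1 and control sample 1, the samples farthest from the median of miR-132, r was 0.12. Without the floor r was -0.38, and over unscaled totals, which also share array brightness, it was 0.084. Leaving out the 2 samples farthest from the miR-132 median moved these as well. Without the floor r was then -0.070 (control sample 3 and knockout sample 1 left out). Over totals it was -0.71 (control sample 1 and knockout sample 2 left out). Between the 2 probes of a single miRNA, r was 0.80 for miR-132 (exact permutation p = 0.0458, adjusted p = 0.115) and 0.84 for miR-212 (exact permutation p = 0.0431, adjusted p = 0.115). Neither passed after adjustment, the dimmer miR-132 probe was below the floor on all 6 arrays, and the difference between these r values and that of the pair was not tested. Adjustment is over the 5 relations computed, for which the adjusted exact permutation p between miR-132 and miR-212 was 0.538. Without the 2 samples farthest from the median of the brighter probe, r was 0.95 for the miR-132 probes and 0.94 for the miR-212 probes.

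Other neighbouring miRNAs give a scale for this. Of 135 tested miRNAs, 100 were matched by name to the RefSeq table, and pairs with an unmatched miRNA are left out. Among those matched, 22 pairs lay within 10000 bases of each other on 1 chromosome. For the 21 other pairs the median r over the 6 arrays was 0.46, with a range of -0.87 to 0.96, and 4 pairs were below 0. The SD of the log2 ratio over arrays was 0.60 for miR-132 and miR-212, against a median of 0.25 and a range of 0.13 to 0.59 for the other pairs. The pairs nearest to it were those of miR-188-5p with miR-532-5p, at 0.59, with miR-362-5p, at 0.57, and with miR-532-3p, at 0.57. In 11 of the 21 other pairs the dimmer miRNA averaged below -3, and there the SD of the ratio had a median of 0.29. All these SDs are over floored signals, and the floor removes any spread below it. For example, miR-362-5p averaged -4.32, the floor itself, in knockout samples, so the SDs of its pairs can be too small. These values are descriptions, since arrays, scaling, low signal and some of the miRNAs are shared between pairs.

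The miRNAs whose levels over the 6 arrays were most like that of miR-132 were miR-155, at r = 0.94, miR-652, at r = 0.79, and miR-484, at r = 0.73. Without the floor these were 0.84, 0.88 and 0.87. miR-155, which LPS induces through NF-κB and which promotes inflammatory activation, stood at 2.57, 2.12 and 2.08 in knockout samples, against 2.50, 2.31 and 2.08 in control samples. As with miR-132, sample 1 was the highest in each genotype. For miR-212 the nearest were miR-15b, at r = 0.77, miR-25, at r = 0.73, and miR-29b*, at r = 0.72. By the same measure miR-212 ranked 117th of 134 in likeness to miR-132, and miR-132 ranked 118th of 134 in likeness to miR-212. All these likenesses are over 6 arrays that share 1 slide and 1 scaling. Each set of 3 was picked as the highest of 134 correlations, so high r values can come from the picking alone. Whether any of them exceeds that was not tested.

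**Figure D5:**
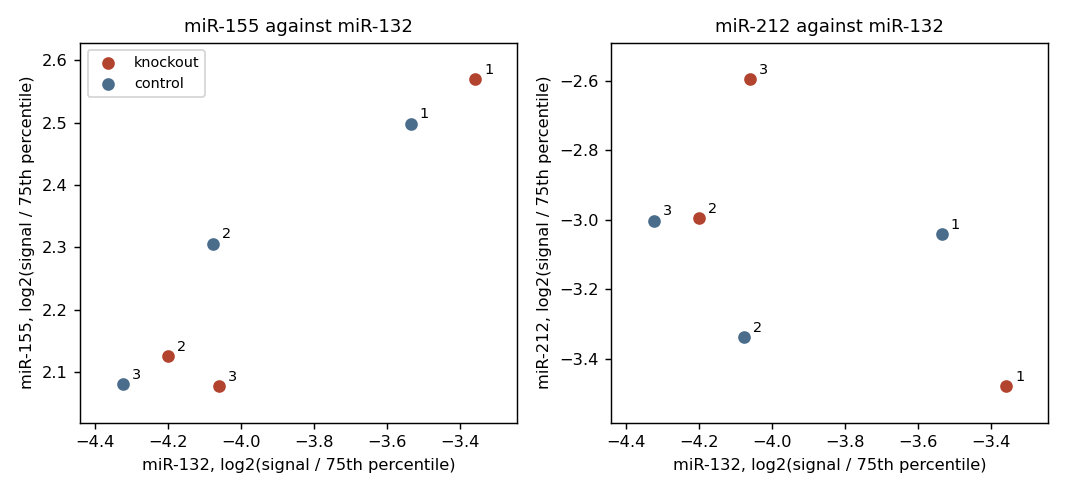
Log2 signal relative to each array's 75th percentile, with the floor of -4.32 applied, of miR-155 (left) and miR-212 (right) against miR-132 on 3 knockout (red) and 3 control (blue) arrays, numbered by sample. miR-155 and miR-132 are both high in the samples numbered 1 (r = 0.94 over 6 arrays), while miR-212 is not (r = -0.49). miR-155 was picked as the highest of 134 correlations with miR-132, and its r was 0.84 without the floor, whereas miR-212 was not picked by r.

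Of 12 miRNAs listed as induced by LPS or NF-κB, 8 were tested, 4 above and 4 below control, and 0 passed in either direction. Their median difference was -0.0039, beside 0.11 over all tested miRNAs. The members with the smallest p were miR-221 at -0.40 (SE 0.23), miR-29b at 0.27 (SE 0.19), miR-27b at -0.20 (SE 0.25) and miR-146b, which restrains Toll-like receptor signalling, at -0.12 (SE 0.16). miR-147, miR-187, miR-9 and miR-9* were detected on no array. Of 12 miRNAs linked to CREB or neuronal activity, 8 were detected on no array, miR-134 was detected on 2, and 3 were tested with 0 passing. miR-29a differed by 0.18 (SE 0.18), miR-22 by -0.18 (SE 0.20) and miR-34c, a miRNA of the p53 response, by 0.0092 (SE 0.16), and the median of these 3 was 0.0092. miR-34c was detected on only 3 arrays and stood at the floor in knockout samples 1 and 2 and control sample 3. Its difference, and the median it sets, therefore say little. The 8 undetected members included miR-124 and miR-9, which mark neurons.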

How the data were processed

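Per the labels and file headers, 0.5 µg of total RNA from each of 6 samples, carrying Cy3, went onto 1-colour Agilent arrays (design 021828). Per the file headers, the deposited spot intensity is the processed signal of Feature Extraction 10.5.1.1, with background subtracted, and carries no normalization between arrays. The submitters' processing notes give version 9.1 instead. The deposited gene-level tables give total intensity per miRNA. The series matrix gives the authors' log2 values, made by steps the sources used here do not give. Exact values recurred on different arrays, such as 3.3387432 for miR-132 in knockout sample 2 and control sample 3. Quantile scaling also gives such repeats, so the series matrix and quantile scaling may not be separate checks, which was not tested. Of its columns, 0 belonged to no sample.

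For each probe the median intensity over unflagged spots was divided by that array's 75th percentile, taken across 200 probes for which at least 50% of spots were well above background on all 6 arrays. Values under the 5th percentile of detected signals were set to it (-4.32 on the log2 scale used from there on). A miRNA took its brightest probe. Probe sequences were not used here, and binding of miR-132 to miR-212 probes or the reverse was not tested. The knockout minus control difference was fitted in limma 3.58.1 under R 4.3.3 (lmFit, eBayes), with Benjamini-Hochberg adjustment at 0.05 over 135 miRNAs detected on at least 3 arrays; the code was tested on simulated data. Ratios were compared by exact permutation tests. The number of arrays limits the precision.

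Named miRNAs were the members, the 3 tested miRNAs best correlated with each, and list members with up to the 4 smallest p. The members, lists and tests were chosen with earlier results of these data known; the neighbouring pairs were chosen after seeing the data. Alternatives covered background correction, scaling, filter, floor, probe and spot summaries, other value tables, blocks, the variance model and left-out arrays.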

Additional observations from a re-analysis of the deposited data

How the results depend on the processing

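No alternative called miR-132, miR-212 or any other miRNA (0 in each, with 1 to 26 miRNAs at an unadjusted p under 0.05 in limma, against 6 as reported; the highest counts were 26 with no scaling and 25 with normexp), and limma adjusted p for both members ran from 0.248 to 0.998. Differences turned in sign. miR-132 stood at -0.029 with quantile scaling, -0.084 with no scaling and -0.030 in the series matrix, and between -0.15 and 0.33 when each array was left out. miR-212 stood at -0.064 with the percentile of all probes, -0.025 with quantile scaling, -0.35 with no scaling and -0.12 in the series matrix, and between -0.11 and 0.33 when each array was left out. The ratio difference was -7.7e-04 with normexp, -0.0044 with quantile scaling, -0.040 with the floor at the 10th percentile, -0.039 with the mean of the probes, -0.0046 with the mean over spots, -0.22 with the dimmer miR-132 and brighter miR-212 probe, -0.33 with the dimmer probes of both, and between -0.48 and 0.31 when each array was left out. The cause of these turns was not tested. Normexp was run with an offset of 50 units, while the brighter probes of both members had medians of at most 44.0 units. With it miR-132 stood at 0.2487 and miR-212 at 0.2494, so this setting says little about either miRNA or their ratio. With every spot required, miR-132 was detected on 2 arrays. The replicate block left the differences at 0.11 and 0.10 (limma adjusted p = 0.767 for miR-132 and 0.851 for miR-212); same-numbered samples correlated at 0.17, -0.072 and 0.37 in their deviations, so the numbers were not taken as pairs, and not every sample correlated best with its own number. The dimmer miR-132 probe lay at the floor on all 6 arrays, so with a floor it gave no value for miR-132 or the ratio, and miR-132 was not among miRNAs detected on all 6 arrays. The mean of the probes averages in that fixed value for miR-132, whose difference was then 0.053 against 0.11 as reported. That setting therefore says little about the ratio. Signal over background was low for miR-132, with 47 of 60 spots of its brighter probe well above it.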

Other observations

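On the array of knockout sample 1, 1 spot of the brighter miR-132 probe read 22469 intensity units, while its 7 unflagged spots lay between 17.5 and 23.8 units. Agilent's image software flagged 3 of the 10 spots of that probe on that array and 0 on the other 5 arrays. The mean was 21.7 units over the unflagged spots and 2266 units over all 10, and the median was 22.1 and 22.7 units. With the flagged spots included in the medians, a setting chosen after seeing the data, the knockout minus control difference of miR-132 was 0.12 instead of 0.11 (limma adjusted p = 0.868). Flagged spots made up 2.64% to 3.04% of mouse spots on the 6 arrays.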
